A study of Mus musculus with 4 samples.

Results

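Among the cells labelled negative from the livers of mice with diet-induced fatty liver injury, 318 cells carried abundant RNA of albumin and the apolipoproteins A-I and A-II. They were chosen from 5271 kept cells of that library, and from 10215 kept cells in the 3 libraries analysed here. Kept barcodes had at least 1000 unique molecular identifiers (UMIs, each 1 captured RNA molecule), 300 or more genes, and no more than 20% of UMIs from mitochondrial genes. The chosen cells had Alb, Apoa1 and Apoa2 together at 100 or more of every 10000 UMIs, and the sinusoidal endothelial genes Clec4g, Stab2 and Ptprb together under 20. Cholangiocytes, the cells that line bile ducts, were the 890 kept cells with Spp1, Tm4sf4 and Epcam together at 30 or more and the Alb, Apoa1 and Apoa2 sum under 100. These 9 genes made the choice, so their values describe the cells and are not findings. The chosen cells are called Alb-high cells here, because the label hepatocyte-like was met by only some of them.

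Every library came from non-parenchymal cells of mice with Col1a2-CreERT2 and a tdTomato reporter, which the labels write R28RtdTomato for negative injury, R29RtdTomato for negative recovery and R27RtdTomato for positive recovery, and the design text R26RtdTomato. Fatty liver disease was induced over 8 weeks with food lacking methionine and choline and holding 45% fat, with 0.1% L-methionine added to the drinking water (MCDHF). Positive and negative fractions were taken at injury and in recovery, with 1 library for each. The design text names this Cre line as a means to enrich Col1a2-positive myofibroblasts. The sources used here do not say what negative refers to, how the fractions were made, how long recovery lasted, or the age, sex and number of the mice. The purification on a Nycodenz gradient was for non-parenchymal cells, so these cells are not a sample of the liver's hepatocytes.

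Hepatocytes make most plasma proteins, package lipid on apolipoproteins, and run the urea cycle, gluconeogenesis, bile acid synthesis and drug metabolism. Cholangiocytes express Spp1, Epcam, Sox9 and keratins Krt7 and Krt19. Both cell types descend from hepatoblasts, and in chronically injured liver a reactive ductular epithelium with features of both is well known.

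The negative injury library held 6160 barcodes and 49993127 UMIs, and its kept cells had a median of 6995 UMIs. The negative recovery library held 3108 barcodes, of which 2818 were kept, with 27816768 UMIs in all. None of the Alb-high barcodes occurred in another library. Each group is 1 library, so differences are given without a test and without a check over replicates. Levels are UMIs of a gene summed over a class of cells, per 1000000 UMIs of that class (CPM), and brackets after them give 95% intervals, exact Poisson for levels and exact Clopper-Pearson for shares, and these cover counting error only. For log2 ratios 10 CPM was added to both levels, which understates the ratio of rare genes, and a gene was counted as higher or lower from 2-fold among genes at 10 CPM or more in either class.

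Alb-high cells made up 6.03% (5.41 to 6.71) of the kept cells at injury, against 41 of 2818 cells or 1.45% (1.05 to 1.97) passing the same rule in negative recovery and 23 of 2126 cells or 1.08% (0.687 to 1.62) in positive recovery. These are shares of purified fractions and depend on the limit, as 12.4% of injury cells passed a sum of 50 and 1.06% a sum of 300. At injury 30 Alb-high cells lay at sums of 100 to 110, just inside the limit, and 45 cholangiocytes at 90 to 100, just outside it. A further 7 cells passed the Alb limit but had endothelial genes at 20 or more.

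The label was checked against hepatocyte and duct markers, which divided the cells. Duct genes (Spp1+Tm4sf4+Epcam) reached 30 of 10000 UMIs in 247 of the 318 cells, 77.7% (72.7 to 82.1), and stayed below in 71 cells. Of the 247, only 19 had Apoa1 and Apoa2 together at 10 or more, while 228, or 71.7% (66.4 to 76.6) of all Alb-high cells, had high Alb without these apolipoproteins. No Alb-high cell lay between 8.42, the highest Apoa1+Apoa2 sum of the 228, and 17.8, the lowest of the other 90 Alb-high cells. The 228 therefore go against the label by 2 of its defining markers, and are called Alb-only duct cells. The 71 are called duct-low cells and the 19 mixed cells. This division was made after the values were seen. Of the 890 cholangiocytes, 7 had Apoa1+Apoa2 at 10 or more.

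**Figure D1:**
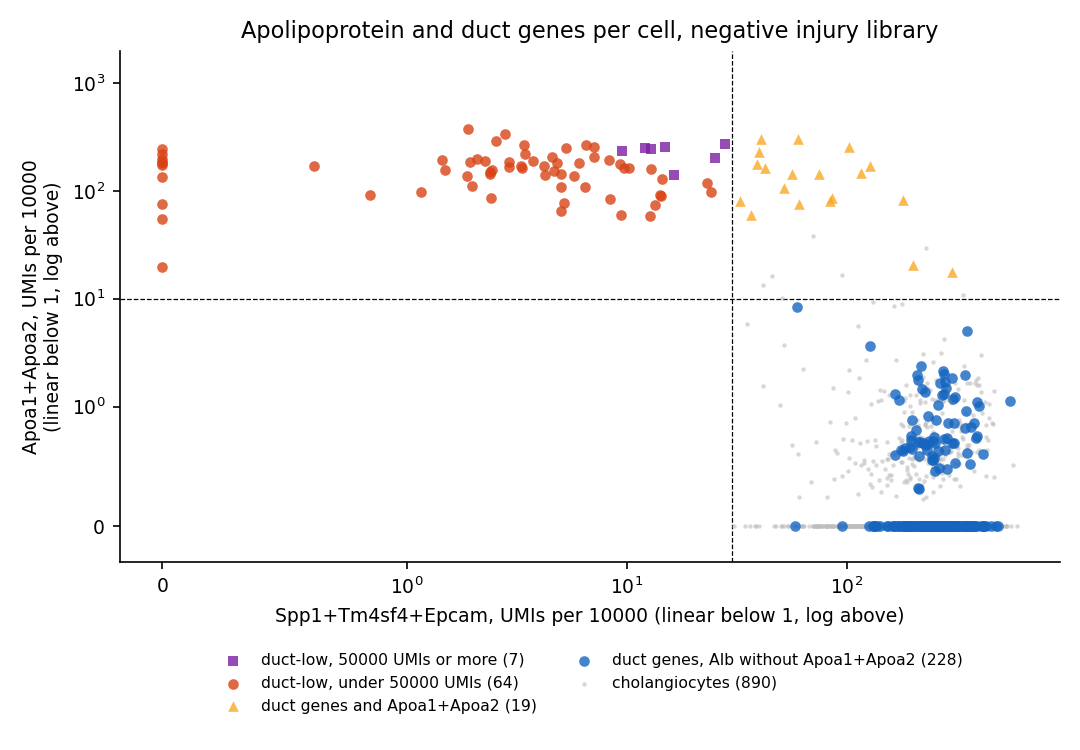
Each point is a kept cell of the negative injury library, with Spp1+Tm4sf4+Epcam on the horizontal axis and Apoa1+Apoa2 on the vertical axis, both in UMIs per 10000 on scales that are linear below 1 and logarithmic above. Dashed lines mark 30 and 10. The 71 duct-low cells sit at the upper left, the 228 Alb-only duct cells lie among the cholangiocytes at the lower right, and the 19 mixed cells are at the upper right.

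Alb encodes albumin (ENSMUSG00000029368, chromosome 5, 90460897 to 90476602, plus strand, mm10). Per 10000 UMIs it had lowest, median and highest values of 27.4, 174 and 561 in duct-low cells, 34.3, 197 and 499 in mixed cells, 98.8, 133 and 428 in Alb-only duct cells and 0, 39.5 and 99.9 in cholangiocytes. Alb thus overlapped between the 3 Alb-high classes. Apoa1 encodes the main protein of high-density lipoprotein (ENSMUSG00000032083, chromosome 9, 46228580 to 46230466, plus strand). It had 7.96, 77.4 and 240.0 in duct-low cells, 17.4, 97.8 and 259 in mixed cells, 0, 0 and 8.42 in Alb-only duct cells and 0, 0 and 38.5 in cholangiocytes. Apoa2, another protein of that particle (ENSMUSG00000005681, chromosome 1, 171225054 to 171226379, plus strand), had 11.9, 79.5 and 218 in duct-low cells and 0, 0 and 1.98 in Alb-only duct cells. Every duct-low cell had more Apoa2 than any Alb-only duct cell. This follows in part from the split, which set Alb-only duct cells apart by Apoa1+Apoa2 under 10 per 10000 UMIs.

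The mixed cells carried the hepatocyte genes with only some of the duct genes. Trf, Hp and Hpx were at 10502, 6401 and 2921 CPM in mixed cells, against 1801, 27.9 and 13.5 CPM in Alb-only duct cells. They passed the duct limit mainly by Spp1 (osteopontin), at 18.9, 58.1 and 274 per 10000 UMIs (lowest, median, highest), against 45.1, 217 and 506 in Alb-only duct cells. Epcam, the epithelial adhesion molecule, had a UMI in 3 of the 19 mixed cells and in 224 of the 228 Alb-only duct cells. Krt19 had a UMI in 4 of the 19 and Sox9, a duct transcription factor, in 7. The mixed cells were not uniform. In 11 of the 19, Ly6d was at 20 or more per 10000 UMIs, and those 11 had no Epcam or Sox9 UMI. Summed levels of mixed cells therefore pool unlike cells.

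Since Alb and Apoa1 RNA went together in some Alb-high cells and apart in others, the 250 bases before the RefSeq start of each gene are shown (GRCm38.p6), plus strand. RefSeq and GENCODE place these starts differently, so by the GENCODE coordinates above the Apoa1 window runs into the gene and the Alb window ends short of it. Capitals mark GTTAAT, part of the site of hepatocyte nuclear factor 1, and CCAAT, the CCAAT box, each searched on both strands (ATTAAC and ATTGG in the other direction), with no overlap between them.
Alb, chr5:90460620-90460869: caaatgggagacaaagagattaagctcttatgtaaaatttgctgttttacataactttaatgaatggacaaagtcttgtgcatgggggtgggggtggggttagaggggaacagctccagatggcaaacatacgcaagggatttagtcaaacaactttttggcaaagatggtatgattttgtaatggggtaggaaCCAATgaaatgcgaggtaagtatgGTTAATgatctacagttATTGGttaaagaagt
Apoa1, chr9:46228380-46228629: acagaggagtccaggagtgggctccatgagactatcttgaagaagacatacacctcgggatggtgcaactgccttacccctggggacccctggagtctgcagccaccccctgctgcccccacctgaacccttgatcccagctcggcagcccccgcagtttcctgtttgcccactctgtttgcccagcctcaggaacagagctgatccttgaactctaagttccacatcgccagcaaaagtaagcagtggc
The Alb window held 1 GTTAAT and 2 CCAAT matches and the Apoa1 window 0 of each. Of 32851 windows of this length, 6.43% held GTTAAT and 33.8% CCAAT on either strand. These matches describe the letters only.

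Against cholangiocytes, the pooled Alb-high cells had a large hepatocyte component on a duct background. Of 9353 genes tested, 348 (3.72%) were at least 2-fold higher and 141 (1.51%) at least 2-fold lower, or 436 and 93 after scaling by the trimmed mean of M values (TMM). The higher genes outside the rule were led by Fabp1, a fatty acid binding protein of hepatocytes, at 3166 (3116 to 3216) CPM in Alb-high cells and 18.2 (16 to 20.5) CPM in cholangiocytes, a log2 ratio of 6.82. Next came Apoc3, an inhibitor of triglyceride clearance, at 5.80, the acute-phase protein Orm1 at 5.50, and Bhmt, which remethylates homocysteine with betaine, at 5.44. Adh1 (alcohol dehydrogenase, 5.23), Hpx (the haem carrier hemopexin, 5.13), Fgb (fibrinogen beta chain, 4.69), Kng1 (kininogen, 4.59) and Cps1 (the first enzyme of the urea cycle, 4.20) were also among the 15 highest. These sums mix the classes: Fabp1 per 10000 UMIs was 11.3, 155 and 567 in duct-low cells and 0, 0 and 3.56 in Alb-only duct cells (lowest, median, highest), and the classes did not overlap.

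By list, the pooled Alb-high cells had a higher hepatocyte programme, with duct genes near the cholangiocyte level. This pools unlike classes, given below: Alb-only duct cells had few hepatocyte genes higher, and duct-low cells had few duct genes. Of secreted plasma proteins, 18 of 22 tested genes were higher and 0 lower (median log2 ratio 2.54, against -0.18 over all genes tested). The counts of higher genes were 12 of 13 for apolipoproteins, 14 of 15 for coagulation factors, 13 of 20 for acute-phase genes, 12 of 16 for the urea cycle and amino acid breakdown, and 12 of 14 for drug metabolism. All 8 tested genes of bile acid synthesis and transport were higher. Duct transcription factors (0 of 12 higher, 0 lower, median -0.39) and duct keratins and junction genes (0 of 16 higher, 0 lower, median -0.41) had no member past 2-fold. With 3.72% of all genes tested higher and 1.51% lower, 0 in lists of this size is near the share over all genes. Of hepatocyte transcription factors only 1 of 14 was past 2-fold: Hnf4a, the master regulator of hepatocyte genes, at 71.8 CPM in Alb-high cells and 24.7 CPM in cholangiocytes.

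The lower genes were led by Ccl2, a chemokine that attracts monocytes, at 18.7 (15 to 22.9) CPM in Alb-high cells and 253 (245 to 261) CPM in cholangiocytes (log2 ratio -3.20). Chemokines were lower in 5 of 11 tested genes. Rgs5, a regulator of G-protein signalling, was at 53.8 and 315 CPM, and Cd74, the class II invariant chain, at 67.1 and 379.6 CPM, in Alb-high cells and cholangiocytes in that order. Several other lower genes mark sinusoidal endothelium, among them Kdr, Fcgr2b, Ehd3, Dnase1l3, Gpihbp1 and Eng. The rule capped endothelial genes in Alb-high cells but not in cholangiocytes, where 46 of 890 cells reached 20 per 10000. Without those 46 cells the lower count was 73, and without the 260 cells of highest doublet score 58.

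The 228 Alb-only duct cells had few genes above cholangiocytes. Of 9172 genes tested, 9 (0.0981%) were at least 2-fold higher in them and 116 (1.26%) at least 2-fold lower. All 10 sinusoidal markers were among the lower genes, and of chemokines 5 of 11 were lower. The rule capped Clec4g, Stab2 and Ptprb in Alb-only duct cells but not in cholangiocytes, so the sinusoidal result is no finding. The lower count was not repeated without the cholangiocytes of high endothelial sum. Ces1c, a carboxylesterase secreted to plasma, led outside the rule at 112 (101 to 124) CPM in Alb-only duct cells and 26.5 (23.9 to 29.3) CPM in cholangiocytes (1.74). Rbp4, the plasma carrier of retinol, was at 712 (684 to 742) and 309 (299.6 to 318) CPM (1.18), in the same order of classes. Pigr, the transporter of immunoglobulin A into bile, had a log2 ratio of 1.04, and the bile acid-induced repressor Nr0b2 one of 1.03. Duct markers stood near the cholangiocyte level: Spp1 at 22710.4 and 19089.7 CPM, Epcam at 923 and 985, Sox9 at 579 and 553, and Krt19 at 277 and 323 CPM. The hepatocyte genes Fabp1, at 23.7 and 18.2 CPM, and Apoc3, at 3.9 and 3.59 CPM, were nearly absent from both classes. The lists of urea cycle, fatty acid oxidation, methionine, apolipoprotein, lipid synthesis and complement genes had 0 members higher, and no bile acid gene reached 10 CPM. With 0.0981% of all genes tested higher, 0 in a list is near the share over all genes. Higher members were 2 of 17 tested secreted plasma proteins (1 lower) and 1 of 7 coagulation factors. Hepatocyte transcription factors had 1 of 13, drug metabolism 1 of 8, and gluconeogenesis and glycogen 1 of 3.

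Among duct cells, levels of several genes differed with the level of Alb. The 1065 cells with duct genes at 30 or more, Apoa1+Apoa2 under 10 and endothelial genes under 20 were binned by Alb at 0 to 20, 20 to 50, 50 to 100, 100 to 150, and 150 or more per 10000, with 196, 313, 330, 144 and 82 cells. Summed levels in that order of bins follow, for genes chosen after their values were seen. Rbp4 was at 90.4, 263, 482, 650.2 and 835 CPM, Serpina1c (an alpha-1 antitrypsin) at 147, 284, 337, 453 and 675 CPM and Nr0b2 at 30.7, 67.9, 135, 163 and 206 CPM, each higher from bin to bin. Not all plasma protein genes did so: Hp was at 228, 26.1, 21.8, 31.6 and 21.5 CPM, highest in the lowest bin, Trf at 1295, 1595, 1665, 1885 and 1652 CPM, and Fgg, the fibrinogen gamma chain, at 75.5, 88.1, 196, 235 and 235 CPM. Apoa1, which the choice of these cells kept low, was at 8.9, 14.8, 15.7, 21.8 and 18.9 CPM. Ccl2 was at 534, 252, 86.2, 9.75 and 6.02 CPM, under 10 CPM in both bins with Alb at 100 or more. Cd74 was at 755, 381, 163, 108 and 75.7 CPM, Rgs5 at 600.1, 292, 155, 92.4 and 50.7 CPM, and the matrix protease Mmp7 at 2059, 1675, 977, 783 and 707 CPM, each lower from bin to bin. Lcn2, which binds bacterial siderophores, was at 4909, 4434, 3281, 3291 and 1691 CPM. Clu (clusterin) was at 20421, 24347, 25997, 30133 and 29881 CPM and Epcam at 1177, 1000, 923, 926 and 914 CPM. Median UMIs per cell were 17337.5, 14689, 15014.5, 14490.5 and 13898, a difference in depth whose part in these levels was not tested.

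**Figure D2:**
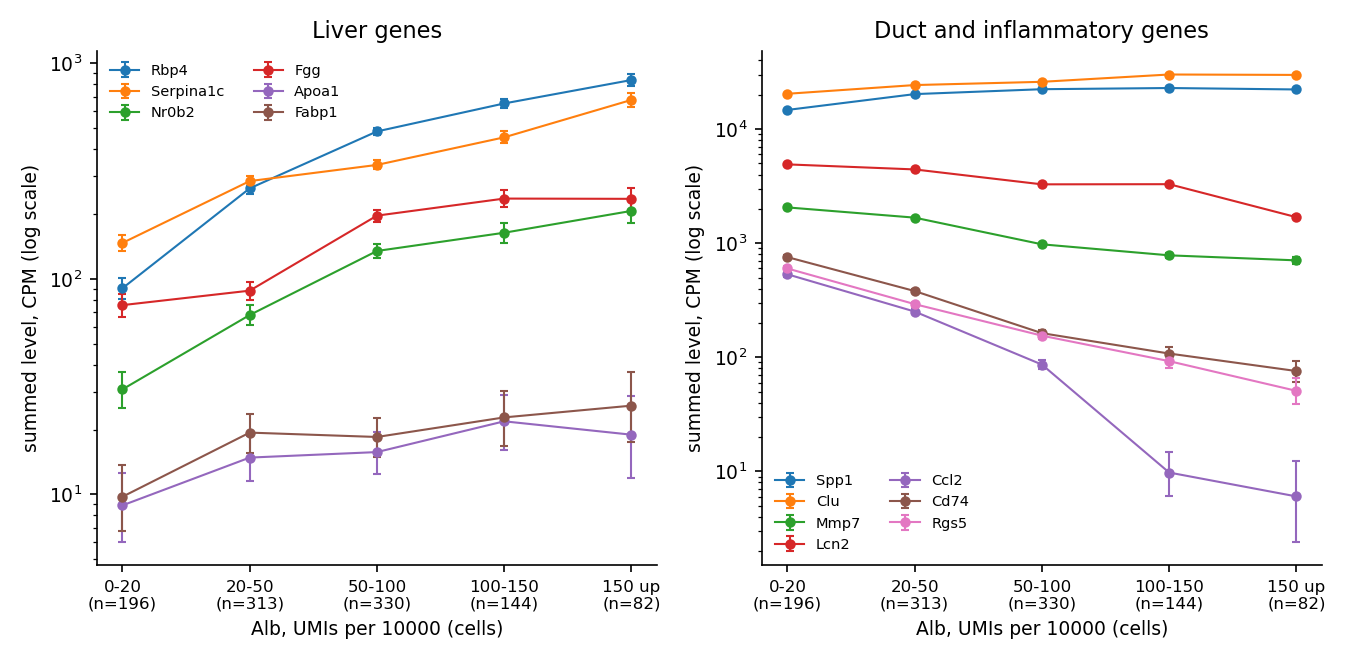
Summed levels (CPM, log scale) in duct cells of the negative injury library grouped by their Alb level (UMIs per 10000, with the number of cells); bars are 95% Poisson intervals. Rbp4, Serpina1c and Nr0b2 are higher in each bin with more Alb, Fgg is alike in the last 2 bins, Apoa1 (kept low by the choice of cells) and Fabp1 are under 30 CPM, and Ccl2 is under 10 CPM in the last 2 bins.

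Free RNA in droplets can give UMIs in cells that do not express a gene, so the same genes were also read in sinusoidal endothelial cells (3586 cells), which should lack them. Each cell was thinned to 1000 UMIs for this, which left out no kept cell. Alb was then found in 88.5% (86.3 to 90.6) of cholangiocytes and 9.54% (8.6 to 10.5) of sinusoidal cells. Unthinned shares were 99% and 37.9%, at median depths of 15348.5 and 6157.5 UMIs. Apoa1 was found in 98.6% (92.4 to 99.964) of duct-low cells, 1.32% (0.272 to 3.8) of Alb-only duct cells, 1.91% (1.12 to 3.04) of cholangiocytes and 2.15% (1.7 to 2.68) of sinusoidal cells. The Alb-only duct cells were split off for low Apoa1+Apoa2, which limits their share. For every 1000 Alb UMIs there were 489 Apoa1 UMIs in duct-low cells, 1.43 in Alb-only duct cells, 6.08 in cholangiocytes and 127 in sinusoidal cells. Fabp1 gave 498, 1.61, 4.42 and 107 in the same order. Alb and Apoa1 were used in choosing the Alb-high cells and cholangiocytes, so these shares and ratios are a description. The part of free RNA in them was not tested.

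The 71 duct-low cells had higher levels of most plasma protein and metabolic genes of hepatocytes. Against the 247 Alb-high cells with duct genes, 852 of 9154 genes tested (9.31%) were higher and 2291 (25%) lower, or 1285 and 1464 with TMM scaling. Without the cells of 50000 UMIs or more the lower count was 3595. Of secreted plasma proteins 20 of 22 were higher and of coagulation factors 14 of 15. Transferrin (Trf), the iron carrier, had a lowest, median and highest value of 16.8, 86.8 and 292 per 10000 UMIs in duct-low cells and 0, 13.4 and 287 in the cells with duct genes, and the groups overlapped. Haptoglobin (Hp), which binds free haemoglobin, had 9.68, 53.2 and 135 in duct-low cells and 0, 0 and 183 in the others. Hemopexin (Hpx) had 6.2, 39.2 and 114 and 0, 0 and 154, in duct-low and other cells. For Hp and Hpx the high values in the cells with duct genes came from mixed cells, as Alb-only duct cells reached at most 16.2 and 3.25.

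The urea cycle and amino acid list had 15 of 17 genes higher, with Ass1 (argininosuccinate synthase) at 1567 CPM in duct-low cells and 52.6 CPM in cells with duct genes, and Arg1 (arginase) at 834 and 13.2 CPM. Of the methionine and choline cycle, the pathway the diet restricts, 10 of 17 were higher: Bhmt was at 2319 and 71.6 CPM and the S-adenosylmethionine synthase Mat1a at 473 and 19.998 CPM. The 1 lower gene was Chdh, choline dehydrogenase, at 19.6 and 64.7 CPM. Fatty acid oxidation had 16 of 17 higher, with Fabp1 at 12596 and 508 CPM. Drug metabolism had 13 of 16 higher, with the cytochrome Cyp3a11 at 807 and 7.63 CPM. All 11 tested genes of bile acid synthesis and transport were higher, though Cyp7a1, the rate-limiting enzyme, was only at 15.9 (9.25 to 25.4) CPM in duct-low cells and 1.84 (0.741 to 3.8) CPM in cells with duct genes.

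Transcription factors of hepatocytes were divided, with 6 of 16 higher and 6 lower (median log2 ratio 0.66, against -0.45 over all genes tested). Of all genes tested 9.31% were higher and 25% lower. Lower genes in this list and the next are to be read against that 25%. Hnf4a was at 166 (143 to 192) CPM in duct-low cells and 45.3 (38.7 to 52.6) CPM in cells with duct genes, while Prox1, which liver progenitors also express, was at 76.6 (60.9 to 95) and 254 (238 to 270.2) CPM. Both were uneven among duct-low cells. They were higher in the 7 duct-low cells of 50000 UMIs or more than in the other 64. The log2 ratios were 1.28 for Hnf4a and 2.46 for Prox1. Fetal and progenitor genes were divided too, with 5 of 13 higher, among them Afp at 1029 and 78.2 CPM, and 6 lower, among them Sox9 at 40.2 and 526 CPM. This list includes Spp1, which the split itself used, and the duct markers Sox9, Krt19 and Cd24a, so its lower genes partly restate the split.

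Genes of both liver zones were present in duct-low cells. Of periportal genes 8 of 10 were higher than in cells with duct genes and of pericentral genes 7 of 8. The pericentral cytochromes Cyp2e1 and Cyp1a2 were at 371 (335 to 409) and 205 (179 to 234) CPM in duct-low cells, against 15.3 (11.6 to 19.7) and 5.79 (3.63 to 8.76) CPM in cells with duct genes. The periportal cytochrome Cyp2f2 was at 3.73 (1.02 to 9.56) CPM in duct-low cells, and the periportal enzymes Hal and Sds at 26.1 and 22.4 CPM. The most abundant periportal gene was Ass1, given above.

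Duct genes were close to absent from duct-low cells, and not only those in the rule. All 12 duct transcription factors were lower than in cells with duct genes (median log2 ratio -2.64, against -0.45 over all genes tested). Keratins and junctions were lower in 14 of 16. Krt19 had 0 UMIs in the 71 cells and 930 in the 247, a level at least 87.4-fold lower against a floor of 3 UMIs over the duct-low sum. Ankrd1, a target of the growth regulator YAP, was at 0.934 CPM in duct-low cells and 1201 CPM in those with duct genes, and YAP targets were lower in 10 of 11. The keratins Krt8 and Krt18, which hepatocytes also express, were at 1172 and 1264 CPM in duct-low cells, against 3525 and 3174 CPM. The interferon-induced Ifi27l2a was at 9.34 and 2046 CPM, in duct-low cells and in those with duct genes, and interferon genes were lower in 9 of 14. Antigen presentation was lower in 7 of 10, and immediate-early and heat shock genes in 15 of 17.

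Nuclear and mitochondrial RNA also differed between the classes, and not in the same way. Malat1, a long RNA kept in the nucleus, had lowest, median and highest values of 0, 0.602 and 102 per 10000 UMIs in duct-low cells, 0, 1.51 and 262 in mixed cells, 11.1, 193 and 528 in Alb-only duct cells and 0, 183 and 1174 in cholangiocytes. It was under 20 in 65 of 71 duct-low cells, 12 of 19 mixed cells, 1 of 228 Alb-only duct cells and 11 of 890 cholangiocytes. Mitochondrial UMIs were under 1% in 46 of 71 duct-low cells and in 1 of 228 Alb-only duct cells, with medians of 0.284% and 5.04%. Mixed cells, with low Malat1, had a mitochondrial median of 9.46% and 0 of 19 cells under 1%. Median depth was 9598 UMIs in duct-low cells, 19870 in mixed cells and 14218.5 in Alb-only duct cells. The part of these differences in the gene lists was not tested. Without any cell under 20 for Malat1, 190 genes instead of 348 were higher in Alb-high cells than in cholangiocytes.

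Depth split the duct-low cells further. Of the 71 cells, 7 had 55094 to 77334 UMIs, the next deepest had 35940, and these 7 cells held 42.8% of all duct-low UMIs. They kept Malat1 at a lowest, median and highest value of 14.6, 47.5 and 102 per 10000 UMIs and mitochondrial UMIs at 4.78% to 7.81%, against 0, 0.218 and 19.5 for Malat1 in the other 64. A further 3 mixed cells had 50000 UMIs or more. The deep cells led the other 64 in the long RNAs Neat1 (945 against 1.63 CPM), Meg3 (511 against 0 CPM) and in H19, an imprinted RNA of fetal liver. H19 was at 1261 (1161 to 1369) CPM in the deep cells and 18 (8.96 to 32.1) CPM in the 64. It was uneven among the 7, with 0, 3.82 and 50.7 per 10000 UMIs. Afp, the fetal counterpart of albumin, was at 1615 (1501 to 1736) CPM in the deep cells and 591 (531 to 655) CPM in the 64, and per cell it had 0.322, 16.3 and 38.3 in the 7 and 0, 0.948 and 54.5 in the 64, so the groups overlapped.

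Several acute-phase genes were lower in the deep cells. Orm1 was at 118 (88.5 to 154) CPM in the deep cells and 4726 (4555 to 4901) CPM in the other 64 duct-low cells, a log2 ratio of -5.21. Serum amyloid A had 0 Saa1 UMIs in the 7 deep cells and 740 in the 64, where it was at 1208 (1122 to 1298) CPM and thus at least 184-fold lower in the deep cells. Per cell, Saa1 in the 64 had 0, 2.97 and 208 per 10000 UMIs, so its sum came from some cells. Gstm3, a glutathione transferase, was at 8.73 and 1364 CPM, and Hpd, an enzyme of tyrosine breakdown, at 34.9 and 1337 CPM, deep cells given before the 64. Lcn2, also an acute-phase gene, had 2.76, 5.99 and 22.1 per 10000 UMIs in the deep cells and 8.31, 46.3 and 155 in the 64, with overlap. The albumin and fibrinogen genes did not follow this pattern, with Alb at 32386 and 19949 CPM and Fgb at 4639.9 and 2662 CPM. Nor did Hp, which is on the acute-phase list: it had like shares, 2611 of 458199 UMIs in the deep cells and 3490 of 612774 in the 64.

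**Figure D3:**
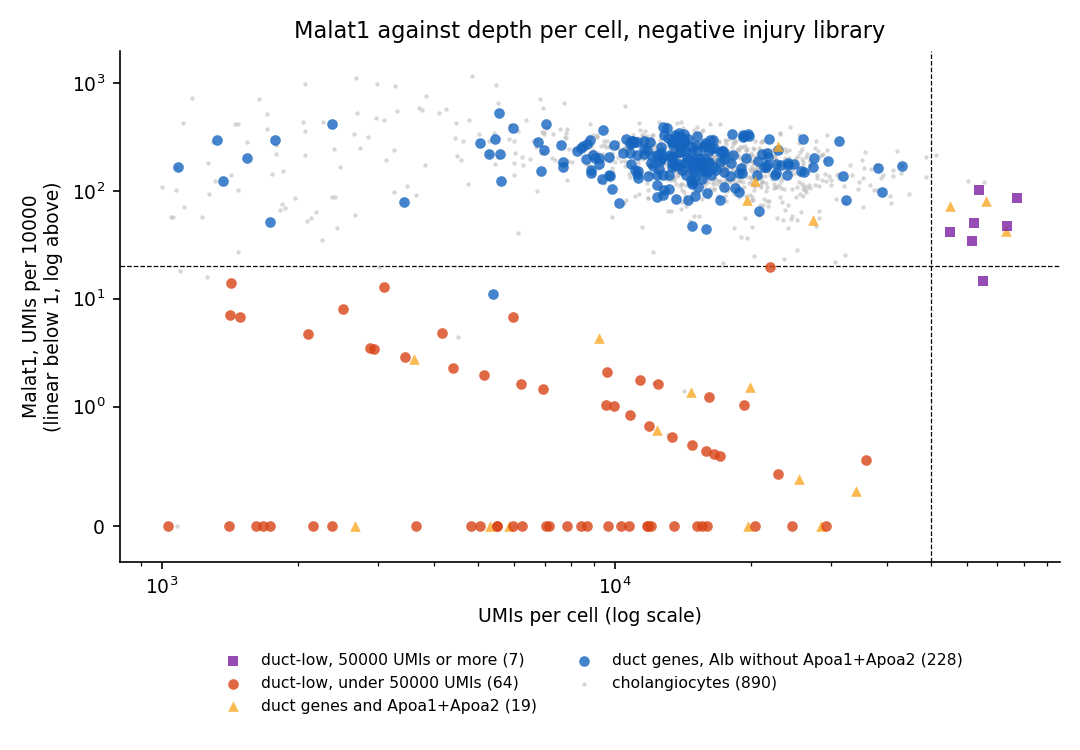
Each point is a kept cell of the negative injury library, with its UMIs on a log axis and Malat1 in UMIs per 10000 on an axis that is linear below 1 and logarithmic above. Dashed lines mark 50000 UMIs and 20 per 10000. The 7 deep duct-low cells lie to the right of the 50000 line, where 3 mixed cells and 3 cholangiocytes also lie. The other 64 duct-low cells lie left of that line and under 20 for Malat1.

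**Figure D4:**
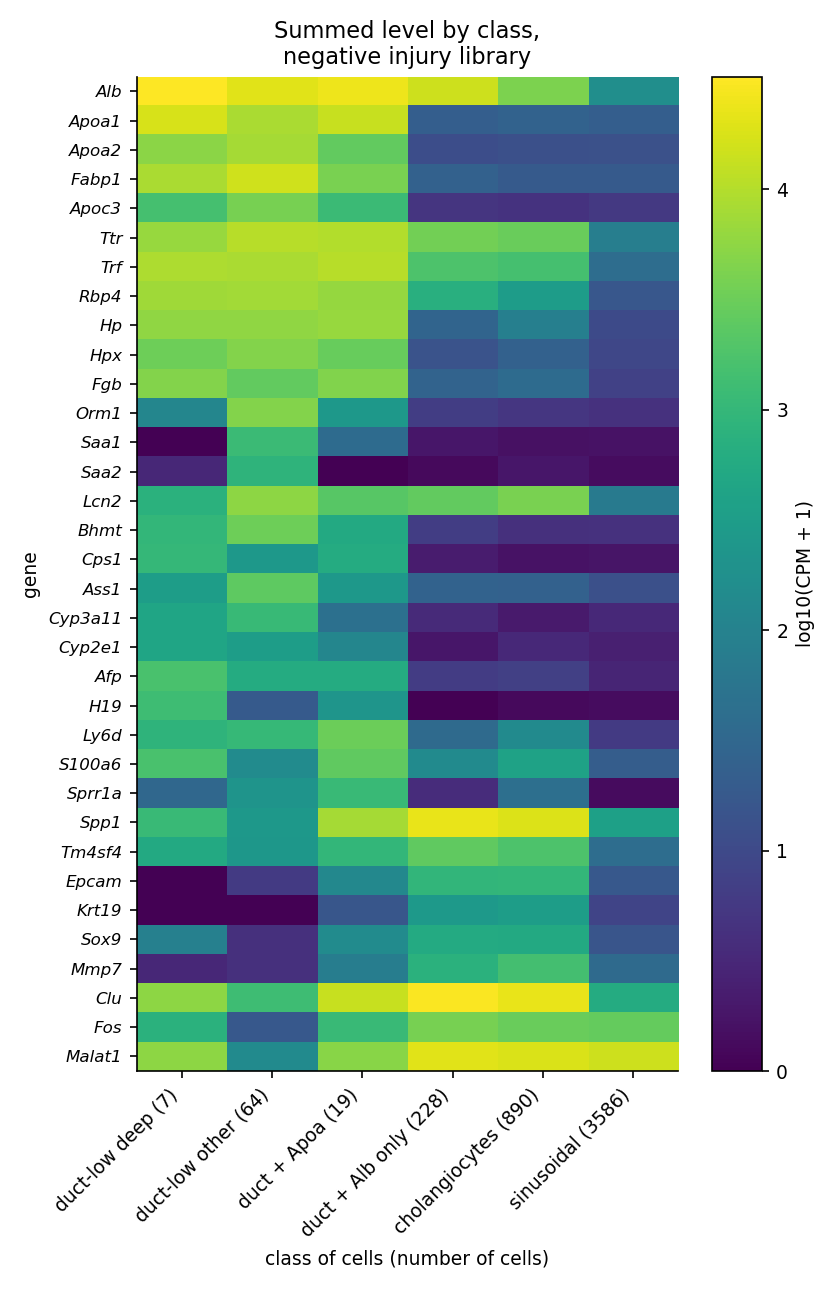
Colour gives the summed level of each gene as log10(CPM + 1) in 4 classes of Alb-high cells, cholangiocytes and sinusoidal cells of the negative injury library, with the number of cells in brackets. Hepatocyte genes such as Fabp1 and Hpx are high in the 3 classes on the left only, Saa1 and Orm1 are highest in the 64 duct-low cells, and Alb is shared by all 4 Alb-high classes.

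The marker genes Lcn2, Ly6d and S100a6 differed in their order across the classes. Lcn2 (ENSMUSG00000026822, chromosome 2, 32384633 to 32388252, minus strand) was at 3509.9 (3399 to 3624) CPM in duct-low cells, 2194 (2061 to 2332) in mixed cells, 2719 (2664 to 2776) in Alb-only duct cells and 3994 (3961 to 4027) in cholangiocytes. Without the 7 deep cells the duct-low level was 5558 (5373 to 5748) CPM. Ly6d, a membrane-anchored Ly6 family protein (ENSMUSG00000034634, chromosome 15, 74762056 to 74763620, minus strand), was at 964 (906 to 1024), 3182 (3023 to 3349), 35.7 (29.6 to 42.7) and 142 (136 to 149) CPM in the same order. S100a6, a calcium-binding protein (ENSMUSG00000001025, chromosome 3, 90612882 to 90624181, plus strand), was at 782 (729 to 836), 2533 (2390.2 to 2681), 145 (133 to 159) and 401 (390.5 to 411) CPM. Ly6d and S100a6 were thus highest in the mixed cells and lowest in the Alb-only duct cells.

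Ly6d stood at 20 or more per 10000 UMIs in 19 Alb-high cells, a limit chosen after the values were seen: 8 duct-low and 11 of the 19 mixed cells. It reached that in 0 of 228 Alb-only duct cells, which allows a share of up to 1.32%, and in 11 of 890 cholangiocytes, 1.24%. Of all 5271 kept cells 31 had it. The 19 cells led the 56 other duct-low cells under 50000 UMIs in Sprr1a, a cornified envelope protein, at 2326 (2143 to 2520.1) CPM against 9.46 (3.07 to 22.1) CPM (6.91), in S100a6 at 3043 against 43.5 CPM (5.83) and in the intermediate filament gene Vim at 799 against 5.68 CPM (5.69). Sprr1a was carried by some of them, with a lowest, median and highest value of 0, 1.04 and 90.7 per 10000 UMIs in the 19. Also higher were the annexins Anxa3 and Anxa2, the galectin Lgals3, the glycolytic Pkm and the serine synthesis gene Phgdh, with log2 ratios of 5.05, 3.61, 4.05, 5.41 and 3.96. Clu was at 14025 and Spp1 at 4893 CPM in the 19 cells, against 1075 and 115 CPM in the 56. The Spp1 difference follows from the choice of cells, as 11 of the 19 are mixed cells, which had to pass the duct limit, and the 56 had to be under it.

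Duct genes were not alike in this: Epcam, Sox9 and Mmp7 had 0 CPM in the 19 Ly6d-high cells, while Spp1 and Clu had the levels just given. Apoa1 was at 11902 CPM there and 8335 CPM in the 56, while metabolic genes were lower, with Gstm3 at 58.4 against 1554 CPM, Hpd at 93.5 against 1518 CPM and Arg1 at 121 against 1497 CPM. Malat1 was at most 14.1 per 10000 UMIs in the Ly6d-high cells and 19.5 in the 56, and Fos was at 27.3 and 13.2 CPM. The mitochondrial transcript mt-Co1 was at 21392 CPM in the Ly6d-high cells and 2122 CPM in the 56, a difference whose part in these ratios was not tested.

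Compared with the 41 cells passing the rule in negative recovery, 479 of 9309 genes tested (5.15%) were higher in the 318 injury cells and 301 (3.23%) lower, or 620 and 169 with TMM scaling. The 2 sets differ in make-up, as 71 of 318 cells were duct-low at injury, 22.3% (17.9 to 27.3), against 19 of 41 in recovery, 46.3% (30.7 to 62.6). Classes were therefore also set side by side, with values only, since recovery holds under 30 cells of each. None of the 41 recovery cells had both duct genes and Apoa1+Apoa2 at the limits, none had Ly6d at 20 or more and none reached 50000 UMIs. In the pooled comparison the acute-phase list had 17 of 20 genes higher (median 1.85), and bile acid genes 5 of 8 (median 1.25). The urea cycle and amino acid list had 9 of 17 lower and 2 higher (median -1.0004) and the periportal list 9 of 12 lower and 2 higher (median -1.56). Without cells under 20 for Malat1, which left no duct-low cell in recovery, these 2 medians were 0.998 and 1.78.

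Duct-low cells under 50000 UMIs at injury (64 cells) and duct-low cells in recovery (19 cells) both had high Alb and Fabp1 and differed in several secreted and acute-phase genes. Lcn2 was at 5558 (5373 to 5748) CPM at injury, against 0 UMIs in recovery, and so at least 109.8-fold higher by a floor of 3 UMIs over the recovery sum. By the same floor Ly6d was at least 20.6-fold and Afp at least 11.7-fold higher. Orm1 was at 4726 (4555 to 4901) CPM at injury and 894 (670.0 to 1170.0) in recovery, Apcs (serum amyloid P) at 953 (877 to 1034) and 33.8 (4.09 to 122), and Mt2, a metallothionein, at 1075 (995 to 1161) and 16.9 (0.427 to 94) CPM. The major urinary proteins were lower at injury, Mup20 at 436 (385 to 491) CPM at injury against 11105 (10273 to 11987) CPM in recovery and Mup3 at 60.4 (42.5 to 83.2) against 7865 (7167 to 8612) CPM. Car3, a carbonic anhydrase, was at 127 and 3359 CPM, and Thrsp, a regulator of fat synthesis, at 32.6 and 1418 CPM, injury before recovery. Bhmt was at 3318 and 9097 CPM, Gnmt, which uses up S-adenosylmethionine, at 677 and 3139 CPM, and Ass1 at 2492 and 5958 CPM. Fabp1, at 15536 and 18784 CPM, was within 1 log2 unit (-0.27). Malat1 was under 20 per 10000 in all cells of both sets, and median depth was 8128 UMIs at injury and 2347 in recovery.

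**Figure D5:**
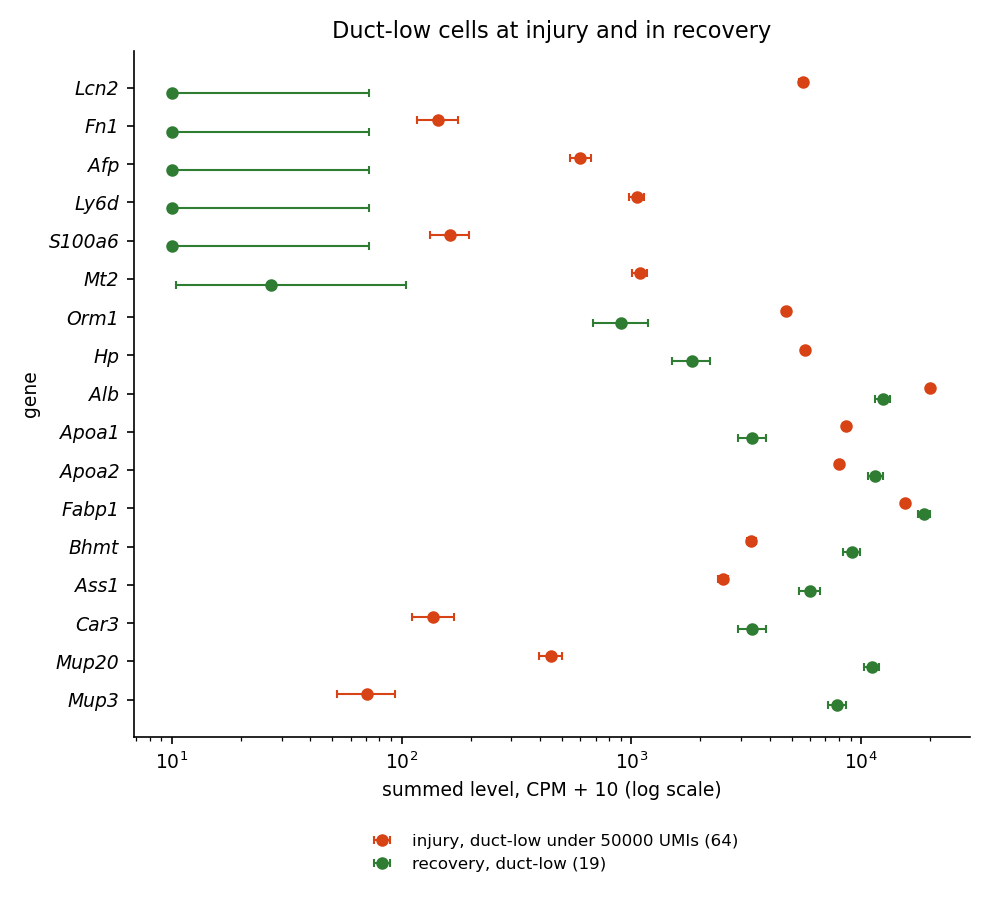
Summed level of 17 genes (CPM + 10, log scale) in 64 duct-low cells under 50000 UMIs at injury and 19 duct-low cells in recovery; bars are 95% Poisson intervals. Lcn2, Ly6d, Afp and Mt2 lie to the right at injury, Mup20, Mup3 and Car3 to the right in recovery, and Alb and Fabp1 are high in both.

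The 228 Alb-only duct cells were set beside the 22 duct cells passing the rule in recovery. Mmp7 was at 752 (723 to 782) CPM at injury and 11.3 (2.32 to 32.9) CPM in recovery (5.16) and Lcn2 at 2719 (2664 to 2776) and 161 (117 to 217) CPM (3.99). Of interferon-induced genes, Ifi27l2a was at 2298 and 75 CPM, Isg15 at 1003 and 48.8 CPM and Irf7 at 728 and 33.8 CPM, injury before recovery. Cholangiocytes below the Alb limit had a like pattern, with Ifi27l2a at 1611 CPM at injury and 19.8 CPM in recovery. Among all Alb-high cells against all recovery cells passing the rule, 13 of 14 interferon genes were higher (median 2.89, against -0.09 over all genes tested). Lower at injury were the cholesterol synthesis genes Hmgcs1 (47.7 and 161 CPM) and Idi1 (18 and 78.8 CPM), together with Ces1c at 112 and 409 CPM. Alb in recovery cholangiocytes was at 4413 (4359 to 4468) CPM with Apoa1 at 4.74 (3.12 to 6.9) CPM, both limited by the rule for cholangiocytes.

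Markers of other cells were near 0 in Alb-high cells. Of 14 marker lists, only the hepatocyte, cholangiocyte and injury epithelium lists reached 30 per 10000 UMIs in more than 1 of the 318 cells. The hepatocyte list holds Alb, Apoa1 and Apoa2, so the rule made every chosen cell reach it. The cholangiocyte list holds Spp1, Tm4sf4 and Epcam, so it largely repeats the duct split. The sinusoidal list of 10 genes reached it in 1 cell, with a range of 0 to 63.5, but the rule had capped 3 of the endothelial genes. Summed levels ranged from 0 to 8.76 for the 7 stellate markers, 0 to 5.62 for the 7 mesothelial, 0 to 2.92 for the 7 fibroblast and 0 to 3.24 for the 8 Kupffer and macrophage markers, of which 5 were at 0. No doublet was called among the 318, but the caller marked only 0.266% of kept cells, so 0 calls there says little. The scores that follow are given as values only. Of the 260 cells with the highest scores, 4.93% of kept cells, 3 were Alb-high, none of them a mixed cell. The median score was nonetheless 0.086 in mixed cells and in deep duct-low cells, against 0.046 over all kept cells and 0.026 in Alb-only duct cells. Whether mixed cells are doublets was not tested.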

How the data were processed

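Single-cell 3' libraries (10x Genomics, v2 protocol per the labels) were deposited as counts of UMIs per gene and barcode, and per the file headers the software was version 3.1.0. The submitters' processing notes name mm10, GRCh38, fastp and featureCounts 1.6.2, with no role or order. The 3 libraries with counts hold 31053 features; counts of the positive injury library were not analysed here. The members and gene lists were chosen with earlier results of these data known.

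From the deposited counts, barcodes were filtered and classed by the stated sums, and UMIs were summed per class into CPM (Python 3.11.15, SciPy 1.17.1). The ratio step was tested on simulated data. Named genes were the 15 highest and 15 lowest ratios among genes at 50 CPM or more, leading members of each list, and cell type markers; genes in the Alb bins and splits of the cells were chosen after the values were seen. Scrublet scores came from scanpy 1.11.5 and TMM factors from edgeR 4.0.16. Shares of cells with a UMI used cells thinned to 1000 UMIs. Coordinates are from GENCODE M21 (mm10). Reads of near-identical copies (Mup, Saa, Serpina1, Orm and H2 genes) may be split by the counting. Some genes that the rule names are not reported here.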

Additional observations from a re-analysis of the deposited data

How the results depend on the processing

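No paired analysis was possible because the labels number no replicates and each group is 1 library. For the same reason no library could be left out. In all 22 settings were tried, 3 of them chosen after the data were seen. Counts follow in the order Alb-high cells over cholangiocytes, Alb-high cells at injury over recovery, and duct-low over duct cells, higher count first; only those more than 1.5 times apart from the reported count are given. With an Alb sum of 50, 12.4% of kept cells passed, 88.7% of them with duct genes, and counts were 223 and 92, then 315 and 100. At 200, 1.84% passed, 41.2% with duct genes, and counts were 694 and 1286, 4695 and 1154, then 528 and 1331. At 300, 1.06% passed, 25% with duct genes, and counts were 804 and 2142, 4249 and 1180, then 408 and 670. Adding 1 CPM gave 319 lower, 878 and 883, and 3506 lower. Adding 50 CPM gave 140 and 18, 127 and 48, then 440 and 497. TMM gave 93 lower, 169 lower, then 1285 and 1464, and it moved the median of all genes by 0.19, 0.16 and 0.37. Means over cells gave 725 and 587 against recovery. Genes of 50 CPM gave 197 and 62, 233 and 146, and 994 lower. The duct-low cells alone gave 917 and 2945 against cholangiocytes, and 2635 and 1116 against recovery. Lower counts were 58 without the highest doublet scores, 73 without cholangiocytes of high endothelial sum, and 3595 in the duct split without cells of 50000 UMIs. Without cells under 20 for Malat1, 190 genes were higher than in cholangiocytes. The cause of these shifts was not tested, beyond the sets of cells and genes that the settings define.

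Reversals were looked for only in the comparisons of all Alb-high cells with cholangiocytes and with recovery. In these settings they occurred only in the comparison with recovery. The duct split and the comparisons of single classes were not checked for them. The urea cycle list, reported at -1.0004, had a median of 0.22 with an Alb sum of 50 and 0.998 without cells under 20 for Malat1, where the periportal list, reported at -1.56, was at 1.78. The bile acid list, reported at 1.25, was at -0.85 with a sum of 200 and -1.001 as a mean over cells. The median over all genes tested against recovery, reported at -0.09, was itself 1.23 with a sum of 200 and 1.16 with 300. Counts and ratios at these sums are to be read against that shift. The following genes were lower at injury in the reported comparison. At 200, Rnaset2b was at 0.30, Smim5 at 0.37 and Msmp at 0.082, and Smim5 at 0.32 at 300. Without cells under 20 for Malat1, Sult2a8 was at 0.10, Car3 at 0.998, Serpina1e at 2.14, Serpina12 at 0.036, Gls2 at 0.35, Gnmt at 0.62 and Car5a at 0.070. For these the cause was not tested. Filters of 500 or 2000 UMIs, 10% or 50% mitochondrial UMIs, and an endothelial limit of 10 or 40 kept the direction of 60 named genes. These were the named genes of the comparisons of all Alb-high cells with cholangiocytes and with recovery only.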
